A study of Mus musculus with 12 samples.

Results

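Zmiz1, Zmiz2 and Gon4l are 3 of the 20409 mouse genes scored in screens that tethered tagged proteins to fluorescent reporters, and they were grouped here because insertions at them had been noted in both the activator and the repressor screen. The members were taken by gene symbol, and their insertions by gene identifier in every library. That grouping uses the insertion counts of the activator and repressor screens themselves, so those counts, and whether they met the threshold of a call, are given below as a description that supports nothing. Zmiz1 and Gon4l met that threshold in both screens. Zmiz2 met it in neither, and its insertions after sorting came mostly from 1 library.

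ORFtag delivers a retroviral cassette, which holds a constitutive promoter, a resistance gene and a tag with a splice donor behind it, that splices the tag onto the next exon downstream of wherever it lands. The cells were diploid, wild-type mouse embryonic stem cells that came from the once haploid line HMSc2, with 1 clonal reporter line per screen. In the activator screen the tag was TetR, the bacterial repressor that binds TetO sites, the reporter had TetO sites before a minimal promoter, and GFP-positive cells were sorted. In the repressor screen the tag was also TetR, the reporter was constitutively active, and cells that had lost GFP were sorted. Both reporters sat at 1 chosen genomic site, whereas the reporter of the posttranscriptional gene regulation (PTGR) screen was integrated at random, carried boxB hairpins in its transcript and was bound by the λN peptide tag, with cells of low GFP sorted repeatedly and a last sort for GFP regained once Cre had removed the boxB sites. Each screen had 2 sorted and 2 unsorted libraries, 12 in all, numbered as replicates, and the cassette was a mixture of all 3 reading frames. The tagged protein was made from the cassette's promoter rather than from the gene's own, so a count says nothing about the natural level of the gene.

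Zmiz1 and Zmiz2 are related transcriptional coregulators of the PIAS-like family. Both carry an SP-RING (MIZ-type) zinc finger, the fold found in SUMO ligases of the PIAS family, and both have been described as coactivators of the androgen receptor. Zmiz1 is also known as a cofactor of Notch1, and a strong transactivation region has been described in its C-terminal part. Gon4l is a nuclear protein with a SANT-like domain in its C-terminal part, found with the repressor Yy1 and with the Sin3a and Hdac1 corepressor proteins, and required for blood and early embryonic development in vertebrates.

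The measurement was the number of distinct genomic positions at which a cassette lay in the gene's direction within 200 kb upstream of an exon that is not the first. The activator sorted libraries held 17397 and 14705 such insertions over all genes, the repressor sorted libraries 22266 and 15204, and the PTGR sorted libraries 60980 and 58560. The unsorted libraries, pooled as the background, held 54088 to 233799 each and 1022126 in total. The 2 repressor sorted libraries shared 27.5% of the positions of the smaller one, against 2.61% for the activator and 0.675% for the PTGR pair. The part of this sharing in the counts was checked by counting each position once per screen, which left 2.85 for Zmiz1 and 3.66 for Gon4l as log2 odds ratios of repressor sorting.

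The splice acceptors on which the results turn are printed here from the GRCm38 (mm10) genome, each with the last 20 bases of the intron and the first 10 of the exon, 5′ to 3′ on the plus strand, on which all 3 genes lie. Capitals mark the acceptor AG. The first group holds the acceptors of Zmiz1 that the activator and repressor sorted insertions used most.
Zmiz1 exon 7, chr14:25635853-25635882: ccatctgtctttgcttgcAGccctgctgtc
Zmiz1 exon 8, chr14:25643538-25643567: gacctcttctctctttgcAGtgatgggtca
Zmiz1 exon 23, chr14:25661247-25661276: tgctctctcctcctccacAGatgccccacg
The second holds the acceptors of Zmiz2 used most often before sorting (exon 2) and after activator sorting (exon 20).
Zmiz2 exon 2, chr11:6390251-6390280: actcatttatgttattgcAGaaaatttcat
Zmiz2 exon 20, chr11:6404970-6404999: tgtgtttgctttgccctcAGctgctcccag
The third holds both main acceptors of Gon4l.
Gon4l exon 2, chr3:88836970-88836999: cttggtttttatgcttctAGgatggaacag
Gon4l exon 22, chr3:88898085-88898114: caacaaaatggtgcttttAGgaaacaatgg

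Gon4l (ENSMUSG00000054199, chr3:88835231-88910103) was far more frequent after sorting in both directions. In the activator sorted libraries it held 45 and 41 insertions, or 25.9 and 27.9 per 10000 insertions of the library. In the repressor sorted libraries it held 63 and 27 insertions, or 28.3 and 17.8 per 10000. The 6 unsorted libraries ranged from 1.54 to 2.52 per 10000 with a median of 1.82, so every sorted library of both screens lay above every unsorted one. The log2 odds ratio against the background was 3.84 ± 0.19 (SE from counts) for activator sorting, with 86 insertions against 192. It was 3.68 ± 0.18 for repressor sorting, with 90 insertions. The replicates taken singly gave 3.79 and 3.90 for the former and 3.92 and 3.24 for the latter.

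Zmiz1 (ENSMUSG00000007817, chr14:25459185-25666743) was also higher in both sorts, more so in the repressor screen. It held 69 and 37 insertions in the repressor sorted libraries, or 31.0 and 24.3 per 10000. In the activator sorted libraries it held 13 and 18, or 7.47 and 12.2 per 10000. The unsorted libraries ranged from 3.08 to 4.99 per 10000 with a median of 3.90, below all 4 of those values. The log2 odds ratio was 2.88 ± 0.16 for repressor sorting (106 insertions against 393) and 1.33 ± 0.27 for activator sorting (31 insertions). The activator replicates gave 0.96 and 1.67, so 1 of them alone lay just under the required value of 1.

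Zmiz2 (ENSMUSG00000041164, chr11:6389074-6406158) was high in a single library. The second activator sorted library held 9 insertions, or 6.12 per 10000, whereas the first held 1, or 0.575 per 10000. The repressor sorted libraries held 2 and 1 insertions, or 0.898 and 0.658 per 10000. The unsorted libraries ranged from 1.25 to 2.05 per 10000, so 3 of the 4 sorted libraries lay below all of them. The log2 odds ratio was 0.92 ± 0.47 for activator sorting (10 insertions against 168) and -1.04 ± 0.84 for repressor sorting (3 insertions). Without the second activator library the first value was -1.52.

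The threshold of a call was a Benjamini-Hochberg adjusted p below 0.001 in a one-sided Fisher's exact test over all genes that had 3 or more insertions after sorting, with the log2 odds ratio at 1 or higher. By it, 2 of the 3 members were called for activation, beside 4.64% of 2842 tested genes. Likewise 2 of 3 were called for repression, beside 8.18% of 2346 genes. Gon4l and Zmiz1 were called in both, which 6 of the 1384 genes tested in both were, or 0.434%. Both sorted libraries lay above all 6 unsorted ones for 11.6% of genes tested for activation and 16.6% of those tested for repression. These shares stand beside the members' counts for scale only, since the members were chosen from the same counts. For activation, Zmiz1 was the member nearest to the threshold from above, and Zmiz2 from below. The quasi-likelihood test of edgeR adds the spread between libraries. It also used only the screen's own 2 unsorted libraries as the background and another filter of low counts. In that test, Zmiz1 did not meet the threshold for activation with or without the replicate number as a block. For repression neither Zmiz1 nor Gon4l met it without that block, and both met it with the block.

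**Figure D1:**
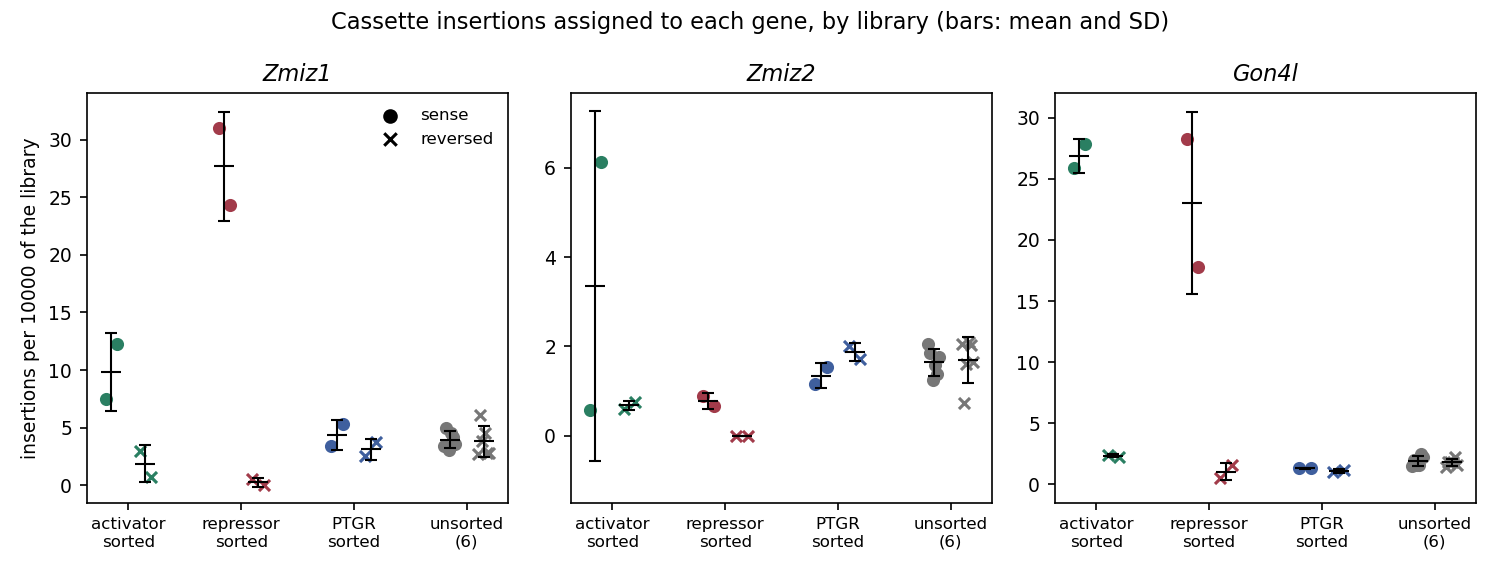
Insertions assigned to each gene per 10000 insertions of the library, for sense insertions (dots) and for insertions assigned as if the cassette were reversed (crosses), with 1 symbol per library and bars for the mean and SD. Gon4l sense insertions sat between 17.8 and 28.3 in all 4 activator and repressor sorted libraries, against at most 2.52 in the unsorted ones, while Zmiz2 stood out in 1 library only.

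The PTGR screen was not used to choose the members and served as a separate test. None of the 3 genes was called there, beside 0.666% of 9303 tested genes, and none had both sorted libraries above all unsorted ones, beside 7.83% of those genes. Zmiz1 held 21 and 31 insertions (log2 odds ratio 0.18 ± 0.21, adjusted p = 0.734 by Fisher's exact test over all genes). Zmiz2 held 7 and 9 (-0.30 ± 0.38, adjusted p = 1), and Gon4l held 8 in each library (-0.49 ± 0.38, adjusted p = 1). None of these 3 reached an unadjusted p of 0.05, the lowest being 0.221, and edgeR and DESeq2 called 0 of them as well. The PTGR sorted libraries were the deepest of the sorted ones. Gon4l at 1.31 and 1.37 per 10000 lay below every unsorted library there, and of the Zmiz1 values, 3.44 lay within their range and 5.29 above it.

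Insertions assigned as if the cassette pointed the other way give a second check, since a reversed cassette cannot splice its tag into the gene. Reversed insertions of Gon4l numbered 4 and 3 in the activator sorted and 1 and 2 in the repressor sorted libraries, or at most 2.42 per 10000. Those of Zmiz1 numbered 5 and 1 in the activator sorted and 1 and 0 in the repressor sorted libraries. Those of Zmiz2 numbered 1 in each activator sorted library and 0 in both repressor sorted libraries. No member was called on reversed insertions in any screen, beside 3.14%, 5.61% and 0.5% of the genes tested in that way for activation, repression and PTGR. Of the 6 gene and screen pairs with at least 3 reversed insertions, 0 had an unadjusted p under 0.05 and the lowest was 0.284, with 0 called by edgeR or DESeq2. The other 3 pairs, Zmiz2 in both TetR screens and Zmiz1 in the repressor screen, were under the minimum of 3. The edgeR runs used only the 2 unsorted libraries of the same screen. In the repressor screen, reversed insertions of Zmiz1 numbered 1 and 0 after sorting, against 49 in each unsorted library. Zmiz2 had 0 and 0, against 35 and 29. In edgeR without a block both genes were lower after sorting, at an unadjusted p of 0.00292 and 0.00248. Neither passed after adjustment over all genes (0.0747 and 0.0687). The difference between sense and reversed insertions itself was not tested.

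Within Zmiz1, the cassettes lay before different exons in the activator and repressor sorted cells. In the unsorted libraries exon 7 was the exon most often downstream, with 256 of 393 insertions, spread over the intron before it at a median of 43.5 kb from the exon. In the repressor sorted libraries exon 7 took 54 of 69 and 20 of 37 insertions, and exon 8 took a further 12 and 16. In the activator sorted libraries exon 7 took only 4 of 13 and 1 of 18, whereas exon 23 took 7 and 15. Exon 23 was downstream of 8 of the 393 background insertions and of 0 of the 106 repressor sorted ones, which allows a share of up to 2.83%.

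The share at exon 7 was therefore 16.1% in activator sorted and 69.8% in repressor sorted cells, a difference of -53.7 percentage points. That difference passed a two-sided Fisher's exact test per gene with adjustment over all 1119 genes that had enough insertions (adjusted p = 9.17e-05), in which 0.715% of genes passed in either direction, 0.268% with the lower and 0.447% with the higher share in activator sorted cells. With all exons as separate categories the adjusted p was 5.17e-19. It lost significance without the second activator sorted library (-39.0 points, adjusted p = 0.699) or without the first repressor sorted library (-37.9 points, adjusted p = 0.113), with the direction kept. The test treats insertions as independent, although they came from 2 libraries per screen. The gene was also chosen with its exon counts known, so these p-values describe the difference and are no separate support for it.

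Relative to the background, Zmiz1 exon 23 was used 87.6 times as often per library in activator sorted cells, with 22 insertions at 22 distinct positions over 1591 bp. Some positions lay close together. With positions within 10 bp in a library counted as 1, the gene's 31 activator sorted insertions became 27, with 5 at exon 7. The exon test then gave an adjusted p of 0.00155 by Fisher's exact test. In the 2 activator sorted libraries exon 23 stood at 4.02 and 10.2 per 10000, against 0 to 0.172 in the 6 unsorted ones. Exon 7 stood at 2.3 and 0.680 per 10000 in those activator libraries, against 24.3 and 13.2 in the repressor sorted ones. Exon 8 stood at 5.39 and 10.5 per 10000 in the repressor sorted libraries, 40.2 times the background in sum, and was at 0 in both activator sorted libraries. Exon 7, the more frequent of the pair in repressor sorted cells, was 7.89 times the background. With a background of only the 2 unsorted libraries made alongside, the folds were 65.6 for exon 23, 52.5 for exon 8 and 7.08 for exon 7. These rest on 4, 5 and 98 unsorted insertions, so the folds of exons 23 and 8 are imprecise. Against the pooled background, with 8 and 19 insertions, the log2 odds ratios were 6.45 ± 0.60 for exon 23 and 5.33 ± 0.43 for exon 8.

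The acceptors translate into different predicted fragments of the 1072-residue Zmiz1 protein. These predictions hold only for a cassette in the reading frame of its acceptor. The cassette was a mixture of frames, and the frame at each insertion is not known. Whether the fragments were made was not tested. A tag joined at exon 7 is followed by residue 95 and all that comes after it, 91.2% of the protein, and one joined at exon 8 by residue 143 onward, or 86.8%. A tag joined at exon 23 is followed by residue 953 onward, the last 120 residues or 11.2%. The cysteine and histidine pattern of the SP-RING was found by search of the translated sequence at residues 749 to 791. It would be kept in every predicted fragment of the repressor sorted insertions and lost from those at exons 22, 23 and 24.

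Divided at the SP-RING pattern, 24 of 31 activator sorted insertions of Zmiz1 lay before exons that start after it, or 77.4% (Wilson 95% interval 60.2 to 88.6%). The corresponding count was 0 of 106 in the repressor sorted libraries, 13 of 393 in the background and 2 of 52 in the PTGR sorted libraries. It was 8 of 13 and 16 of 18 in the 2 activator sorted libraries taken singly. Insertions before the earlier exons stood at 2.18 per 10000 in the activator sorted libraries, 0.587 times the background, whereas they stood at 28.3 per 10000 in the repressor sorted libraries, 7.61 times. The division was chosen after the exon counts had been seen, so no test is given, and the intervals cover counting error only.

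Zmiz2 held few insertions, and those of activator sorted cells lay toward its 3′ end. Its protein has 920 residues, of which 903 could be aligned with Zmiz1, 65.2% of them identical, and the SP-RING pattern lies at residues 600 to 642. The 9 insertions of the second activator sorted library lay before exon 17 (1), exon 18 (3), exon 19 (1) and exon 20 (4), whose first whole residues are 667, 749, 805 and 886, all after the pattern. In the background 6 of 168 insertions lay before those exons, and in the repressor sorted libraries 0 of 3. These 9 were distinct positions, and 1 of them was also found in the unsorted library of the same number. The lone insertion of the first activator sorted library lay before exon 2.

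Exons 22, 23 and 24 of Zmiz1 begin at residues that align with residues 749, 805 and 886 of Zmiz2, the very starts of exons 18, 19 and 20. The activator sorted insertions in both genes thus fell before corresponding C-terminal exons, but not in equal shares. Exon 23 took 22 of the 24 in Zmiz1, whereas its counterpart exon 19 took 1 of the 9 in Zmiz2. For Zmiz2 the exon test gave 10% at exon 2 in activator sorted and 100% in repressor sorted cells, with only 10 and 3 insertions and an adjusted p of 0.68 by Fisher's exact test over all genes.

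Exon 2 of Zmiz2 is untranslated, and 161 of the 168 background insertions lay before its first acceptor, at a median of 22.4 kb for all insertions assigned to exon 2, nearly all outside the gene. Between that acceptor and the start codon the transcript holds 452 bases with 9 stop codons in the frame of the start codon. Exon 2 of Zmiz1, with 68 background insertions, likewise leads through 4 stop codons in that frame. No such stop lies between the acceptor and the start codon for exon 4 of Zmiz1 or exon 2 of Gon4l. A gene's total count thus mixes insertions with and without an open frame into the protein, and the mixture differs between the 3 genes.

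**Figure D2:**
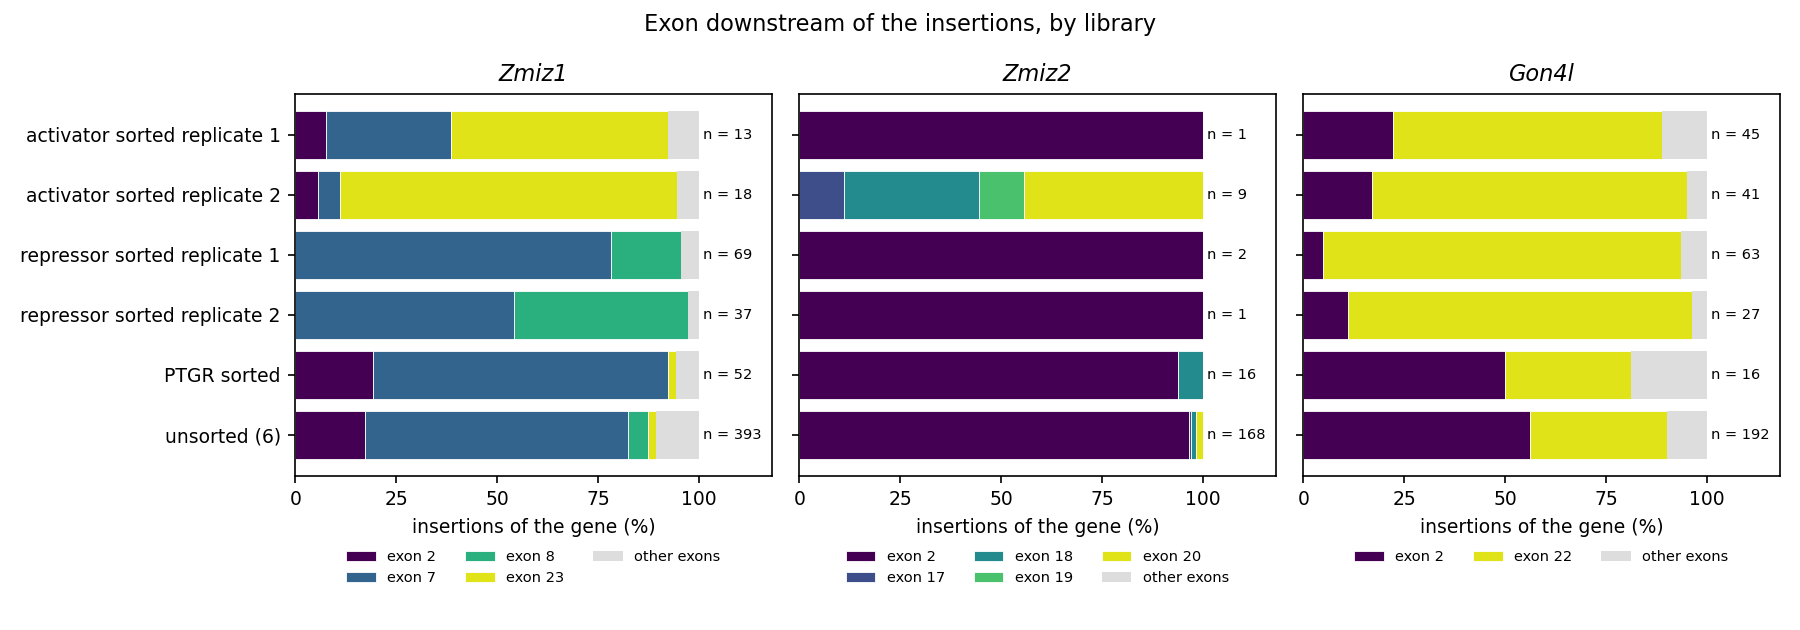
Share of each gene's insertions (percent) by the exon downstream, for single activator and repressor sorted libraries, the pooled PTGR sorted libraries and the 6 unsorted libraries, with the number of insertions at the right. Exon 23 held 53.8% and 83.3% of Zmiz1 insertions in the activator sorted libraries and none in the repressor sorted ones, whereas exon 22 led for Gon4l in all 4 sorted libraries of those screens.

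Gon4l differed from Zmiz1 in that both screens used 1 acceptor. Exon 22 took 30 of 45 and 32 of 41 insertions in the activator sorted libraries. It took 56 of 63 and 23 of 27 in the repressor sorted libraries. In the unsorted libraries it took 65 of 192, or 33.9%, and exon 2 was the most frequent with 108. Per 10000 insertions, exon 22 stood at 17.2 and 21.8 in the activator sorted and at 25.2 and 15.1 in the repressor sorted libraries, which overlap. That is 30.4 times the background after activator sorting and 33.2 times after repressor sorting.

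The unsorted libraries were not alike at this exon. The 2 repressor unsorted libraries stood at 1.32 and 1.13 per 10000, above the 0 to 0.53 of the other 4. Against its own unsorted libraries the repressor fold was 17.2, and the activator fold 49.3, resting on 43 and 15 unsorted insertions. The repressor unsorted files also listed every position more than once, whereas the activator files listed each once, and positions were counted once here.

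A tag joined in frame at exon 22 is followed by residue 1497 onward, the last 746 of 2242 residues, or 33.3% of Gon4l. Most of the insertions lay in the intron before that exon, at a median of 0.751 kb from it in activator sorted cells, 0.766 kb in repressor sorted cells and 0.801 kb in the background. The repressor sorted ones spanned 1119 bp in all. The annotated transcript start nearest to the middle of this cluster was that of the antisense gene Gm43713, 2663 bp away.

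**Figure D3:**
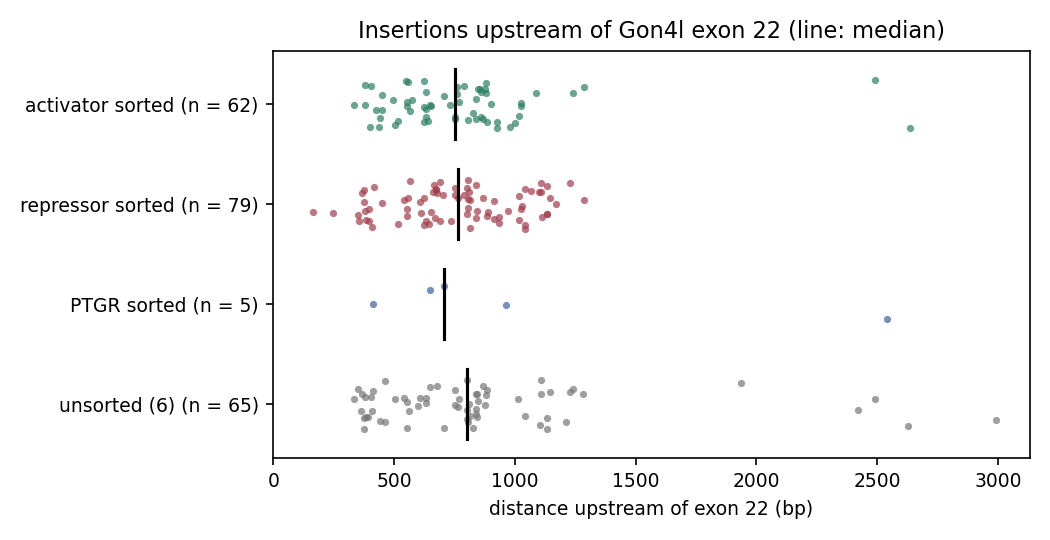
Distance in bp between each insertion and the start of Gon4l exon 22 for the activator, repressor and PTGR sorted libraries and the 6 unsorted libraries, with 1 dot per insertion, scattered vertically for clarity, and a line at the median. The medians lie within 0.705 and 0.801 kb, and the positions of the 4 groups overlap.

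Some of the exact positions in Gon4l recurred. The activator sorted libraries held 74 distinct positions and the repressor sorted libraries 79, and 17 were in both, which is 23% of the former and 21.5% of the latter. Of those 17, 8 were also found in the background. Over all genes, activator and repressor sorted libraries shared only 0.0952 to 0.201% of the positions of the smaller library. For Zmiz1 and Zmiz2 no position was in both screens' sorted libraries. Within a screen, the repressor sorted pair shared 14 Zmiz1 and 11 Gon4l positions, and the activator sorted pair shared 12 Gon4l and 0 Zmiz1 positions. Counting positions within 10 bp in a library as 1 took Gon4l from 86 to 60 activator sorted insertions and from 90 to 59 repressor sorted ones. Whether a recurring or neighbouring position is 1 integration carried over or a preferred site was not tested.

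The second acceptor of Gon4l, exon 2, showed a difference in where the cassettes lay. Exon 2 holds the start codon, so that a tag joined there in frame is followed by the whole protein. It took 17 activator sorted insertions (10 and 7), or 5.30 per 10000, 5.01 times the background. It took 6 repressor sorted insertions (3 and 3), 1.52 times the background with a log2 odds ratio of 0.60 ± 0.61. Of the 17, 14 lay within 20 kb of the exon, and so did all 6 from repressor sorted cells, but only 5 of 108 did in the background. The other 103 background insertions lay farther upstream, at a median of 90.9 kb for all those assigned to exon 2. The near ones centred 12.1 kb upstream of the gene. The 14 lay at 11 distinct positions, the 6 at 5 and the 5 of the background at 5. The 20 kb limit was not part of the planned comparisons, so no test is given.

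The share of Gon4l insertions at exon 2 was 19.8% in activator sorted and 6.67% in repressor sorted cells, a difference of 13.1 points that did not pass the exon test (adjusted p = 0.666 by Fisher's exact test over all genes). Exons after exon 22 were used by 6 activator sorted insertions (exons 24, 25, 26 and 30) and by 0 repressor sorted ones. Exons 18, 20 and 21, just before it, were used by 5 repressor sorted insertions and by 0 activator sorted ones. These counts are too small to compare exon by exon. With all exons as separate categories, Fisher's exact test for Gon4l gave an unadjusted p of 0.00185. It did not pass after adjustment over all genes (0.148).

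**Figure D4:**
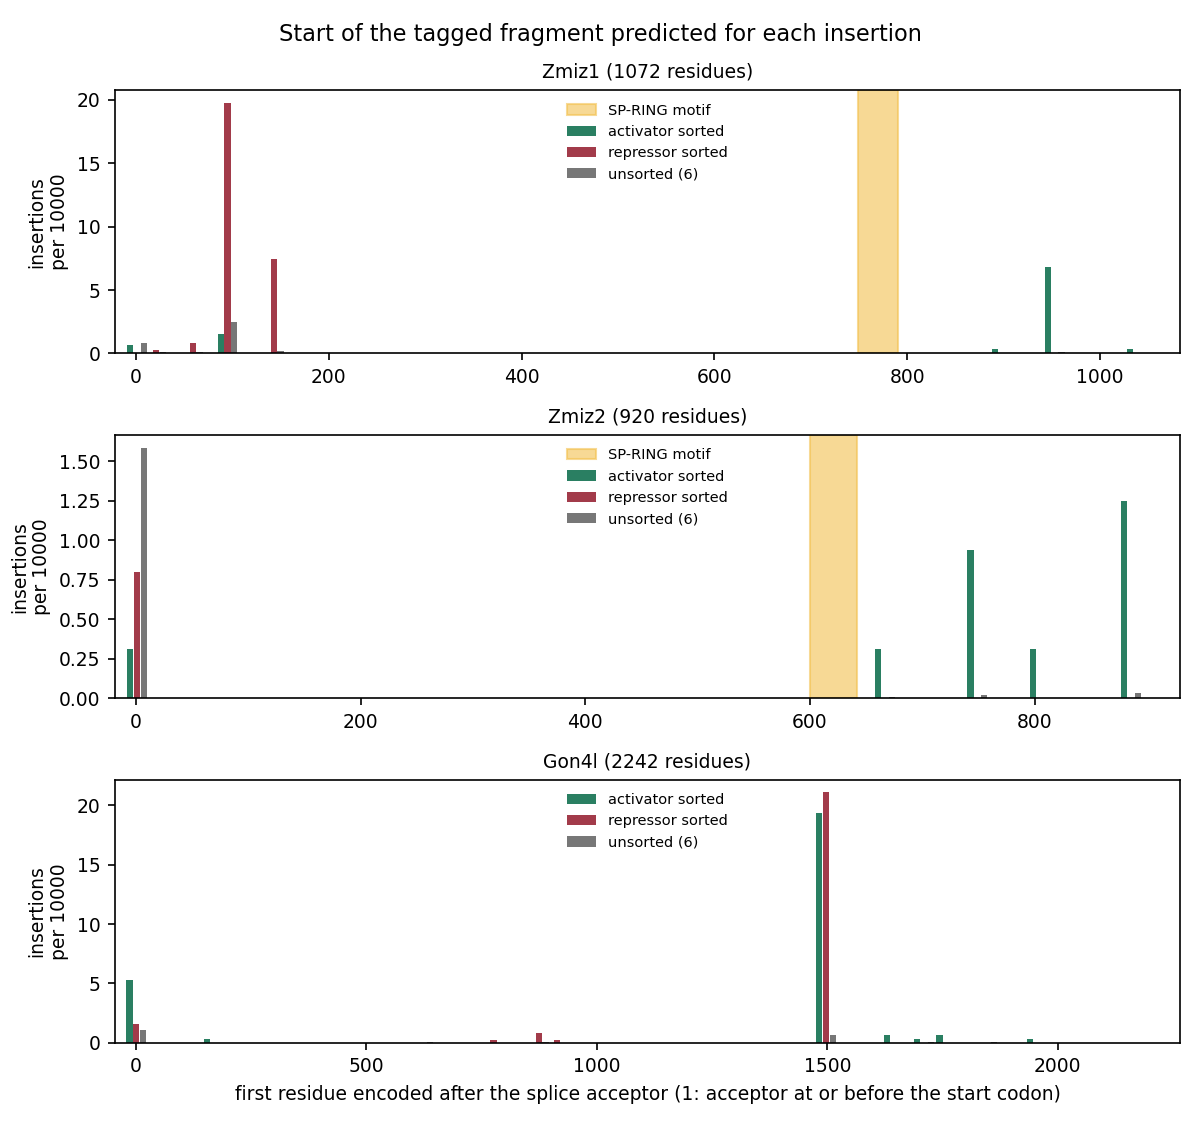
Insertions per 10000 of the pooled activator sorted, repressor sorted and 6 unsorted libraries against the first residue of the protein encoded after the splice acceptor, with the SP-RING pattern shaded. In Zmiz1 the tallest activator bar stands at residue 953, after the pattern, and the tallest repressor bar at residue 95, before it, whereas in Gon4l both stand at residue 1497.

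Besides Gon4l and Zmiz1, the genes called in both screens were Bcl9l, a β-catenin cofactor, Foxo4, a forkhead transcription factor, Maml1, a Notch coactivator, and Tada3, an adaptor of histone acetyltransferase complexes. Maml1 had log2 odds ratios of 5.09 ± 0.52 for activation and 5.62 ± 0.46 for repression. Bcl9l had 2.40 ± 0.36 and 3.83 ± 0.23, and Tada3 1.74 ± 0.36 and 1.87 ± 0.32. Foxo4, with 95 activator and 17 repressor sorted insertions, had 4.44 ± 0.19 and 1.73 ± 0.37. The exon test was passed by 1 of these 6 genes, Zmiz1. The unadjusted p of the other 5 ranged from 0.0131 for Gon4l to 0.756 for Bcl9l.

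Over the 12 libraries, the profile of Gon4l was most like those of Maml1 (Pearson r = 0.957), Bcl9l (0.914) and Tada3 (0.913), among 4328 genes compared on log2 insertions per 10000 with 0.1 added. That of Zmiz1 was most like Zfp874a (0.953), Bcl9l (0.936) and Maml1 (0.913). That of Zmiz2 was most like Actr3b (0.827), Grsf1 (0.823) and Hmgb1 (0.816). These are descriptions over 12 libraries that share depth and screen.

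Genes with related roles were examined as 4 lists of 35 genes in all. Among the other SP-RING proteins, which are the SUMO ligases Pias1 to Pias4 and Nsmce2, 0 of 5 were called for activation, with 1 tested, and 1 for repression, with 2 tested. The overall shares of 4.64% and 8.18% of tested genes stand beside these and the following counts. The gene called was Nsmce2, the ligase of the Smc5/6 complex, which held 20 and 9 insertions in repressor sorted cells (log2 odds ratio 3.20 ± 0.31). Pias2 held 11 and 2 repressor sorted insertions (0.00 ± 0.41), and Pias1, Pias3 and Pias4 held at most 1 in any activator or repressor sorted library.

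Of 14 genes of SUMO conjugation, 0 of 3 tested were called for activation and 3 of 7 tested for repression. Among those called were the modifiers Sumo2 (128 and 97 insertions, log2 odds ratio 5.70 ± 0.16) and Sumo3 (60 and 36, 5.74 ± 0.25). The activating enzyme subunits Sae1 (0.14 ± 0.52) and Uba2 (0.28 ± 0.74) were not called.

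Of 10 described partners of Zmiz1 or Zmiz2, 1 of 4 tested was called for activation and 2 of 3 tested for repression. Trp53, the p53 tumour suppressor, held 17 and 22 activator sorted insertions (2.26 ± 0.25) and 2 and 0 in the repressor sorted libraries. Rbpj, the DNA-binding factor of the Notch pathway, held 212 and 86 repressor sorted insertions (3.86 ± 0.10) and 5 and 1 in the activator sorted libraries. Smarca4, the ATPase of BAF chromatin remodelling complexes, held 15 and 6 (3.16 ± 0.36) after repressor sorting and 4 and 2 (1.58 ± 0.62) after activator sorting.

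Of 6 described partners of Gon4l, 2 were tested for activation, 2 for repression and 3 for PTGR, and 0 were called. Yy1 held 1 and 2 activator sorted and 2 and 1 repressor sorted insertions, Hdac2 held 4 and 4 and then 3 and 1, and Sin3a held 1 in total after activator and 1 after repressor sorting, against 8 in the background. With so few insertions, an enrichment of these genes was not detectable at this depth. Over all 35 genes, 1 of 10 tested was called for activation, 6 of 14 for repression and 0 of 23 for PTGR, to be read beside the shares over all genes above. An unadjusted p under 0.05 was reached by 2 of those 10 and by 6 of those 14. In the PTGR screen 0 of the 23 had an unadjusted p under 0.05 and edgeR and DESeq2 called 0. The median log2 odds ratio of the list genes tested was 0.21 for activation and 0.89 for repression, beside -0.14 and -0.39 over all genes tested. A gene was tested only with 3 or more insertions after sorting, so these medians cover 10 and 14 of the 35 genes. They are given for scale and do not describe the lists as a whole. With edgeR without a replicate block, 0 of the 6 called for repression passed the threshold, with an adjusted p of 0.0023 for Sumo2.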

How the data were processed

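The 12 libraries were made by inverse PCR from genomic DNA. The authors trimmed reads with Trim Galore (version 0.6.0), aligned them to mm10 with Bowtie2, removed duplicates and poorly mapped reads with SAMtools (version 1.9), and took for each insertion the next exon downstream in protein-coding GENCODE transcripts, leaving out first exons. They deposited 1 list of insertions per library and assignment (sense and reversed), with position, exon number and distance in bp. They also deposited, for each screen, a table of per-gene counts in sorted and background cells, summed over replicates. The deposited odds ratios, adjusted p-values and call columns of those tables hold the study's own comparisons and were not used.

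Positions listed more than once in a library were counted once. For the 3 members the sums equalled the deposited counts in the activator and repressor screens and in the background, and were lower in the PTGR screen, where the deposited sums were 57, 19 and 23 against 52, 16 and 16. The comparison followed the study's methods, a one-sided Fisher's exact test of summed sorted replicates against all 6 unsorted libraries, with Benjamini-Hochberg adjustment over genes with at least 3 sorted insertions. Standard errors come from the counts. The exon test was a two-sided Fisher's exact test per gene of insertions at the exon most frequent in the background and at all others, with an adjusted p below 0.05. Alternatives were edgeR (version 4.0.16) and DESeq2 (version 1.42.0), other backgrounds, a limit of 50 kb, other minimums and libraries left out. The exon test was also run with positions within 10 bp counted as 1. Scripts were tested on simulated data. Exons, residues and start codons came from GENCODE vM21, not the authors' release, and from the RefSeq copy of the genome; every acceptor of the members matched an annotated exon start. Replicates are separate transductions according to the study, but p-values from summed counts hold no spread between them, and intervals cover counting error only.

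The named genes were the members, all genes called in both TetR screens, list genes called in a screen and, for each member, the 3 genes of most similar profile among those with at least 30 insertions in all; other list genes are given for scale, and some items are not reported here. The members, lists and comparisons were chosen with earlier results of these data known.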

Additional observations from a re-analysis of the deposited data

Results flagged for a closer look

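The share of Zmiz1 insertions at exon 7 differed between the TetR screens, by -53.7 percentage points in activator sorted relative to repressor sorted cells, and the difference itself was tested by Fisher's exact test (adjusted p = 9.17e-05 over 1119 genes). The test counts insertions from 2 libraries per screen as independent, the gene was chosen with its exon counts known, and the difference did not pass without the second activator sorted library (adjusted p = 0.699) or without the first repressor sorted library (adjusted p = 0.113). The share was lower in both activator sorted libraries, at 30.8% and 5.56%, against 78.3% and 54.1% in the repressor sorted ones.

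Among the 6 unsorted libraries, the reversed insertions of Zmiz2 were lowest in 1 library, at 0.744 per 10000, far from the other 5. This was the second PTGR unsorted library, the shallowest of the 6, with 4 such insertions. Chance places about 1 group in 20 this far out, and 6 such groups were examined.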

How the results depend on the processing

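Of 328 values recomputed under other settings, 299 kept their direction and side of the threshold or stayed within the spread of the replicates. Gon4l and Zmiz1 had positive log2 odds ratios in both TetR screens under every setting run, and no member was called for PTGR or on reversed insertions. Zmiz1 lost its call for activation without the second activator sorted library (0.96), with DESeq2 and with edgeR, with and without the replicate block. Zmiz1 and Gon4l lost their calls for repression with edgeR without the block and kept them with it. For activation Gon4l had 4.08 against the same-screen background, 4.74 within 50 kb, 3.74 with every listed position counted, 3.64 with each position once, 4.27 with DESeq2, 3.93 with edgeR, 3.94 with the replicate block and 3.76 to 3.94 with 1 library left out, and Zmiz2 had -1.52 to 1.897 with 1 library left out. For repression Gon4l had 4.51 within 50 kb, Zmiz1 3.18 with DESeq2, and Zmiz2 -0.63 with DESeq2, -0.68 with edgeR and -0.67 with the replicate block. For PTGR Zmiz1 had -0.16 to 0.46 with 1 library left out. Its reversed insertions had 0.025 within 50 kb and -0.48 to 0.11 with 1 library left out, and those of Zmiz2 -0.037 with each position once and -0.091 to 0.13.

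The exon difference of Zmiz1 ranged from -64.3 to -37.9 points with 1 library left out. That of Gon4l was -14.0 points within 50 kb, where exon 22 takes the place of exon 2 as the most frequent background exon. Genes called in both TetR screens numbered 2 with DESeq2 and 2 with the replicate block, Gon4l and Maml1 each time, 0 with edgeR without the block, and 4 to 6 with 1 library left out. By edgeR without the block, 12 genes were higher in both at an unadjusted p under 0.05, against 8 with the block and 15 with DESeq2. List genes called for repression numbered 0 with edgeR without the block and 5 with it. The edgeR and DESeq2 settings also changed the background to the screen's own 2 unsorted libraries. The causes of these differences were not tested.

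Sorted and unsorted libraries share replicate numbers, but the labels state no pairing. Deviations of same-numbered libraries correlated at 0.0496 for activation, 0.00596 for repression and 0.258 for PTGR, with 2 pairs each. Positions were shared more within a number in 2 screens: activator sorted library 2 shared 19.2% with unsorted library 2 and 1.39% with unsorted library 1, and PTGR sorted library 1 shared 19.5% with unsorted library 1 and 0.447% with unsorted library 2. For repression this was so for sorted library 2 only, which shared 5.47% with unsorted library 1 and 8.72% with unsorted library 2. Sorted library 1 shared 8.50% and 10.0% with unsorted libraries 1 and 2. Since the labels do not say what a number marks, the replicate block stayed an alternative. A minimum of 10 sorted insertions left some reversed counts without a value. The 10 and 3 sorted insertions of Zmiz2 leave small differences for that gene undetectable at this depth.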
